A study of Mus musculus with 6 samples.

Results

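A set of 10 genes of proteoglycan and glycan sulfation were followed across the cell types of the old mouse hippocampus, 24 h after a general anaesthetic or air. They are Xylt1, Ext1, Ndst3, Ndst4, Hs6st1, Hs6st2, Hs6st3, Hs3st4, Chsy3 and Chst9, which makes 10 of the 31253 genes measured. Each symbol matched 1 row of the gene tables. The set was drawn up because Chst9, Hs6st2, Xylt1 and Ext1 had been seen at lower levels in neurons of the exposed animals in these same libraries. The genes were thus chosen by their levels in neurons, so values of the members in neurons and in neuron subtypes are given below as a description.

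The data are 6 droplet single-cell RNA libraries made with a 3' kit of 10x Genomics, 3 from mice kept in air (Control) and 3 from mice that breathed the inhaled anaesthetic sevoflurane (Sevoflurane) at 2% for 6 h. The labels call the animals elderly or old, and name no strain, sex, genotype or age in months. Both groups were dissociated with collagenase, frozen and thawed before capture. The labels count 6 mice but do not tie each library to its own mouse, so every p-value below weighs a difference only against the scatter of libraries, which may be technical.

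Proteoglycans are core proteins that carry long sulfated sugar chains, chiefly heparan sulfate and chondroitin sulfate. A chain starts when a xylosyltransferase puts xylose on the core protein. The exostosins then lengthen heparan sulfate, and the chondroitin synthases lengthen chondroitin sulfate. Sulfotransferases place sulfate groups along the chain, and their pattern sets which growth factors, guidance cues and synaptic receptors bind. In the brain these chains sit at synapses and in the perineuronal matrix.

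Depth ran from 54426522 to 70741809 UMIs (unique molecular identifiers, each marking 1 captured transcript) per library, and 6645 to 8996 cells per library were kept, 46876 in all. Marker genes sorted the cells into 8 classes, and each class name means only that its cells resemble that type by those markers. 4 of 35 clusters, with 2589 cells, fitted no name. Neurons made up 29031 cells. Library Sevoflurane 1 stood apart in Xist, at 1397 CPM against 0.52 to 1.27 in the other 5. It also did in the Y-linked gene Ddx3y, at 0.317 CPM against 44.4 to 58.2. By these genes that library looks female and the other 5 male, so sex is not balanced between the groups. Without it, the median log2 fold change of the members in neurons was -0.52 in place of -0.41. The part of sex in any member, the X-linked Hs6st2 or others, was not tested beyond leaving that library out. Choroid plexus cells numbered 63, 19 and 100 in the Control libraries and 0, 1 and 3 in the Sevoflurane libraries. Free transcripts of those cells also differed: the summed level of 8 choroid plexus markers inside neurons was 63.0 to 315 CPM in Control and 14.7 to 17.7 CPM in Sevoflurane. CPM here is the UMI count scaled to a common size of a library's sum over the class, with TMM factors.

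The promoters of 3 members are shown because the genes behind them behaved differently in the counts: Hs6st1 was the member with the smallest difference in neurons, Hs6st2 was lower without overlap in 1 neuron subtype, and Hs3st4 was highest in CA3 and some retrohippocampal cells. RefSeq windows (GRCm38.p6) were at hand for 5 members, and the 250 bases before a start are printed 5' to 3' on the gene's strand. Capitals mark GC boxes (GGGCGG or CCGCCC) and CCAAT boxes (CCAAT or ATTGG), which do not overlap each other here.
Hs6st1, chr1:36068150-36068399, plus strand: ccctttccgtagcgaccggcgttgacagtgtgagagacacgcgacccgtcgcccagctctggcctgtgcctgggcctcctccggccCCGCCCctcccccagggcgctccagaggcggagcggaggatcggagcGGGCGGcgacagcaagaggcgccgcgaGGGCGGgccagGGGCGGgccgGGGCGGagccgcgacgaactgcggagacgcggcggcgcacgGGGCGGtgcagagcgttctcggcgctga
Hs3st4, chr7:123982578-123982827, plus strand: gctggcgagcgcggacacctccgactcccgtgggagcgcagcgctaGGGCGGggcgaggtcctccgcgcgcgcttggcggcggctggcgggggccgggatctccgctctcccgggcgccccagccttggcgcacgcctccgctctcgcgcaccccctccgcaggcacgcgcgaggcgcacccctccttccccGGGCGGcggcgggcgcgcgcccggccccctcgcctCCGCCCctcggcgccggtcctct
Hs6st2, chrX:51681603-51681852, minus strand: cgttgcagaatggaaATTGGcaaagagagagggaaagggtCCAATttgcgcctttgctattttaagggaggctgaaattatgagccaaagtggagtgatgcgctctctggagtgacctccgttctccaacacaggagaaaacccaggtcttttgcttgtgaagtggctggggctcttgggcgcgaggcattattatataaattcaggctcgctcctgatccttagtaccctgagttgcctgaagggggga
Hs6st1 held 6 GC boxes and 37 CpG pairs, Hs3st4 3 GC boxes and 43 CpG pairs, and the upstream start of Hs6st2 no GC box, 2 CCAAT boxes and 7 CpG pairs. Over 32851 RefSeq windows of the same length, 32.7% held a GC box on either strand, 33.8% held a CCAAT box, and the median number of CpG pairs was 6. The other RefSeq start of Hs6st2 held neither box and 26 CpG pairs.

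The members lie on 7 chromosomes, and 9 of the 10 have long gene bodies. In the GENCODE M21 annotation (GRCm38), Hs6st3 covers 731 kb on chromosome 14 (119138341 to 119869815, plus strand), Hs3st4 416 kb on chromosome 7 (123982869 to 124398989, plus) and Xylt1 293 kb on the same chromosome (117380979 to 117673580, plus). Ext1 covers 282 kb on chromosome 15 (53064038 to 53346159, minus), Hs6st2 295 kb on chromosome X (51387212 to 51681856, minus), Ndst4 325 kb on chromosome 3 (125404076 to 125728899, plus) and Ndst3 165 kb on the same chromosome (123526166 to 123690853, minus). Chst9 and Chsy3, both on chromosome 18, span 308 and 361 kb. Hs6st1 is the exception, with 38.0 kb on chromosome 1 (36068400 to 36106446, plus). The median of the members was 301 kb and that of the 31184 genes with a match 12.7 kb. Hs6st1 and Hs3st4 each overlap 1 other measured gene on the opposite strand, and the strand setting of the counting was not given in the sources used here, so their reads could be shared.

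The levels of the members in the Control libraries differed between cell types, and each gene is ordered here only against itself. Of the heparan sulfate 6-O-sulfotransferases, Hs6st3 was highest in CA1 pyramidal cells at 4142 ± 246 CPM (SD, n = 3), and in a pooled group of neurons that fitted no fixed subtype at 3851 ± 242 CPM. These did not separate beyond their spread, and dentate granule cells were at 369.9 ± 4.41 CPM. Hs6st2 was highest in retrohippocampal excitatory cells at 202 ± 8.21 CPM, then in the pooled neurons at 127 ± 2.60 CPM and CA1 cells at 119 ± 12.3 CPM, which overlapped. CA3 cells, at 14.7 ± 3.22 CPM, overlapped astrocytes at 14.7 ± 2.48 CPM. Hs6st1 was at 60.6 ± 20.6 CPM in microglia, clear of every neuron subtype, the nearest being the unnamed neurons at 27.3 ± 3.96 CPM. Subtypes pool unlike clusters, though. Retrohippocampal cluster 11 alone held Hs6st1 at 56.8 to 69.3 CPM, overlapping microglia, and Hs6st3 at 4013 to 5433 CPM, overlapping the CA1 cells. Hs6st2 was at 268 to 311 CPM in retrohippocampal cluster 10 but at 105 to 117 CPM in cluster 22. The latter lay below CA1 cluster 13, at 143 to 176 CPM.

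Hs3st4, which adds the rare 3-O sulfate, was highest in CA3 pyramidal cells at 2961 ± 66.1 CPM, followed by retrohippocampal cells at 2267 ± 263 CPM and CA1 cells at 653 ± 82.1 CPM, with no overlap between these neighbours. This order is that of the pooled subtypes and did not hold for single clusters: Hs3st4 was at 4448 to 4467 and 5080.1 to 5235 CPM in retrohippocampal clusters 10 and 22, above 2910 to 3106 and 3002 to 3693 CPM in the CA3 clusters. Ndst3 and Ndst4, of the N-deacetylase and N-sulfotransferase family that begins the sulfation of heparan sulfate, split differently. Ndst1 and Ndst2 of that family are not among the 10 genes. Ndst3 was highest as a subtype in CA1 cells at 539 ± 50.9 CPM, above retrohippocampal cells at 348 ± 43.3 CPM, and was at 35.7 ± 5.03 CPM in dentate granule and 35.3 ± 2.57 CPM in CA3 cells. Retrohippocampal cluster 14 alone was higher, at 757 to 862 CPM, than the CA1 clusters at 469 to 595 and 549 to 598 CPM. Ndst4 led in retrohippocampal cells at 357 ± 61.4 CPM, overlapping CA1 cells at 291 ± 24.6 CPM, with dentate granule cells at 147 ± 22.0 CPM.

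Chst9, which sulfates N-acetylgalactosamine on other glycans, was highest in dentate granule cells, with 379.8 ± 16.3 CPM there, and 107 ± 26.7 CPM in the pooled neurons that came next. Retrohippocampal, CA3, CA1 and oligodendrocyte precursor cells followed at 81.1, 73.6, 67.6 and 61.6 CPM and overlapped neighbour by neighbour. Dentate granule cells held 64.8% of all neuronal Chst9 UMIs. Chsy3, a chondroitin synthase, was highest in retrohippocampal cells at 963 ± 38.1 CPM and in Adarb2 interneurons at 637 ± 33.3 CPM, overlapping the pooled neurons, and lowest in CA3 cells at 15.7 ± 3.26 CPM.

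Xylt1, the xylosyltransferase that starts the chain, was highest outside neurons: oligodendrocyte precursors were at 2496 ± 181 CPM, retrohippocampal cells at 537 ± 15.7 CPM and astrocytes at 426 ± 41.4 CPM, with no overlap between them. This order did not hold for every cluster. Retrohippocampal cluster 11 was at 331 to 374 CPM, below astrocytes at 399 to 474 CPM, while cluster 22 was at 640 to 674 CPM. Mature oligodendrocytes were at 51.0 ± 21.5 CPM. Ext1, a subunit of the polymerase of heparan sulfate, was the most even member, from 183 ± 44.7 CPM in endothelial cells to 834 ± 54.3 CPM in retrohippocampal cells, which overlapped CA1 cells at 793 ± 59.0 CPM. Counts were not corrected for free RNA, and 10 neuron markers together reached 3039.9 to 3494 CPM in Control astrocytes, against 16186 to 16951 CPM in Control neurons.

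**Figure D1:**
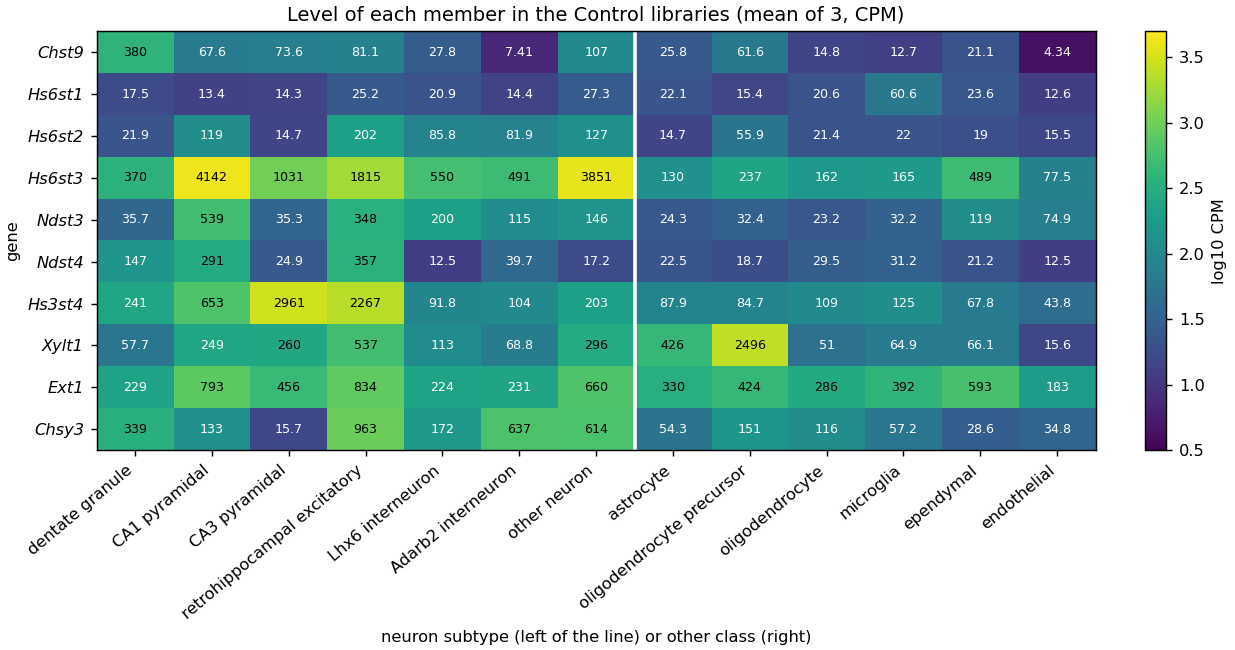
Mean level of each gene (rows) in the 3 Control libraries, in CPM, for 7 neuron subtypes (left of the line) and 6 other classes (right), with colour on a log10 scale. Among these pooled groups, Chst9 peaks in dentate granule cells at 379.8 CPM, Hs6st3 in CA1 cells at 4142 CPM, Hs3st4 in CA3 cells at 2961 CPM and Xylt1 in oligodendrocyte precursors at 2496 CPM.

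For 4 members the genes with the most similar profile over these 13 subtypes and classes were sought among 12160 genes with at least 20 CPM in 1 of them, by Pearson r of the mean log2(CPM + 1), as a description. Chst9 was closest to Kcnmb4 (0.88), Ano3 (0.87) and Nsun7 (0.87), and Hs6st2 to Igsf9b (0.94), Kcnh7 (0.93) and Gabra3 (0.93). Xylt1 was closest to Igsf21 (0.89), Mir9-3hg (0.86) and Carnmt1 (0.85). Ext1 was closest to Zdhhc23 (0.91), Hnrnpll (0.88) and Dkk3 (0.86). The 13 points share libraries.

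In neurons as a whole, every member was lower in Sevoflurane on average, which is the contrast that chose them. Chst9 had the largest difference. It was at 136, 167 and 152 CPM in the Control libraries and at 81.8, 71.9 and 64.6 CPM in the Sevoflurane libraries, a log2 fold change of -1.06 (SE 0.10), or 0.480 times the Control level. Every Sevoflurane library lay below every Control library, by a wide gap.

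Among the enzymes that start and lengthen chains, all 3 members differed by more than the sulfotransferases of heparan sulfate. Xylt1 was at 231, 241 and 247 CPM in Control and 144, 151 and 164 CPM in Sevoflurane, a log2 fold change of -0.65 (SE 0.06). Ext1 was at 558, 515 and 522 CPM in Control and 419, 349 and 351 CPM in Sevoflurane, -0.51 (SE 0.08). Chsy3 was at 380.0, 388 and 387 CPM in Control and 286, 195 and 262 CPM in Sevoflurane, -0.64 (SE 0.13). None of the 3 overlapped between groups, and the Sevoflurane libraries spread more than the Control libraries for Chsy3.

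Hs6st2 was at 91.6, 87.1 and 90.6 CPM in Control and 70.5, 59.6 and 74.2 CPM in Sevoflurane, a log2 fold change of -0.40 (SE 0.08). Without Sevoflurane 1, the library that stood apart in Xist, it was -0.42. Hs3st4 was at -0.30 (SE 0.07), Ndst3 at -0.42 (SE 0.13) and Hs6st3 at -0.21 (SE 0.08), each without overlap, although the lowest Control value of Ndst3 was 201 CPM and the highest Sevoflurane value 199 CPM. Ndst4 at -0.36 (SE 0.12) and Hs6st1 at -0.11 (SE 0.12) overlapped between the groups. Hs6st1, the member with the short gene body, was at 20.4, 16.5 and 19.3 CPM in Control and 15.3, 16.96 and 19.9 CPM in Sevoflurane.

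In all, 8 of 10 members were lower with no overlap, beside 13.8% of the 18870 genes tested in neurons, and the median log2 fold change was -0.41 for the members and 0.02 for all genes. Nothing is read from this count, since the rule used the contrast. Gene length moved with the difference, and its part was not tested beyond the trend removal below: 2685 genes of at least 100 kb had a median of -0.13, with 73.1% below 0, against 46.1% of all genes. It also moved with other measures, whose part in it was not tested: the summed level of 10 neuron markers in neurons was 16186 to 16951 CPM in Control and 14683 to 14962 CPM in Sevoflurane, with 5 of 10 markers lower and 1 higher without overlap, and that of 8 retrohippocampal markers was 843 to 953 CPM and 486 to 756 CPM.

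**Figure D2:**
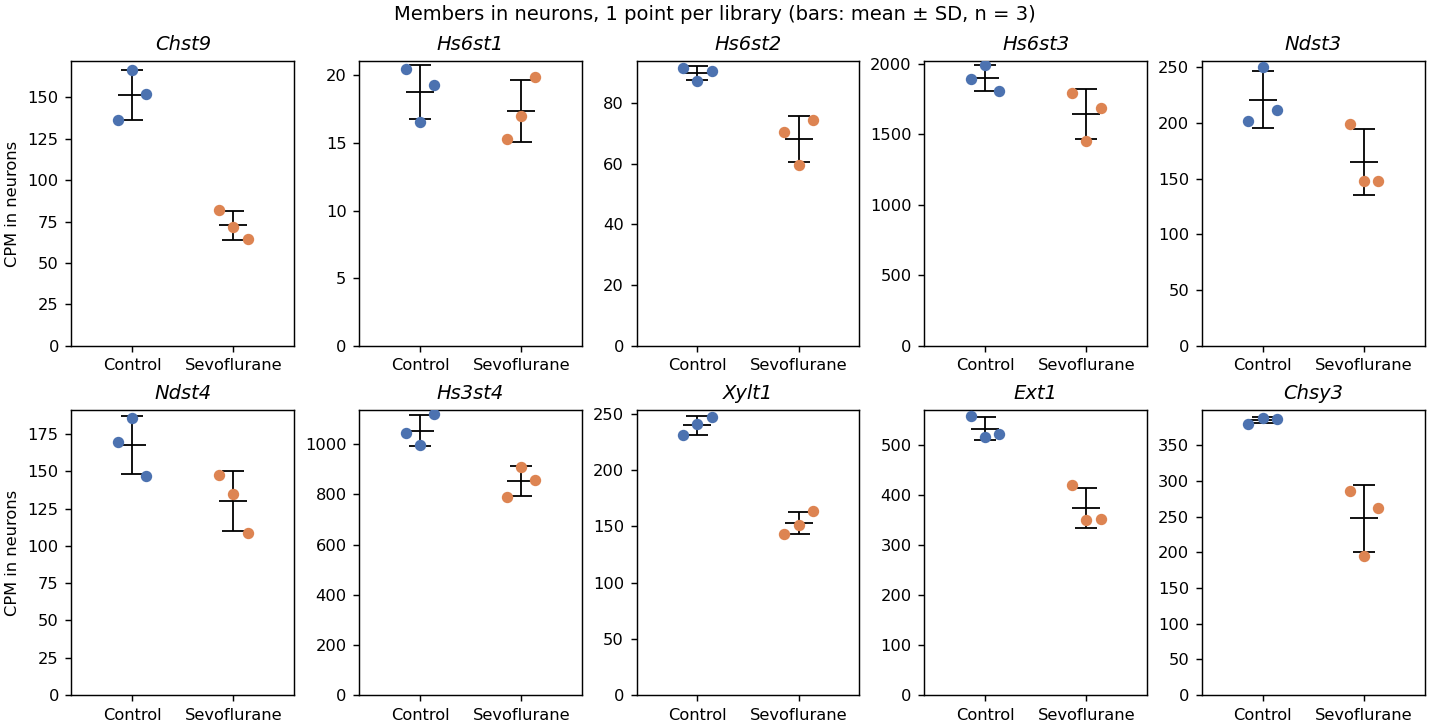
Level of each gene in neurons, in CPM on an axis from 0, with 1 point per library and bars for mean ± SD (n = 3). For Chst9 the Control libraries sit between 136 and 167 CPM and the Sevoflurane libraries between 64.6 and 81.8 CPM, while the points of Hs6st1 and Ndst4 overlap.

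After removal of each library's smooth dependence on gene length, the median of the members moved from -0.41 to -0.26. Chst9 was then at -0.88, Xylt1 at -0.48, Chsy3 at -0.45, Ext1 at -0.34, Ndst3 at -0.30, Hs6st2 at -0.23, Ndst4 at -0.18, Hs6st1 at -0.13 and Hs3st4 at -0.10. Hs6st3, the longest member, was at 0.03, so its direction turned. When 17 neuron clusters were weighted equally in every library, all genes together moved to a median of 0.12, and the members are given relative to it. Chst9 was at -1.12, Xylt1 at -0.51, Chsy3 at -0.45, Ext1 and Ndst3 both at -0.43, Ndst4 at -0.33, Hs6st2 at -0.26, Hs3st4 at -0.24, Hs6st3 at -0.13 and Hs6st1 at -0.004. Chst9 kept the largest difference under both.

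**Figure D3:**
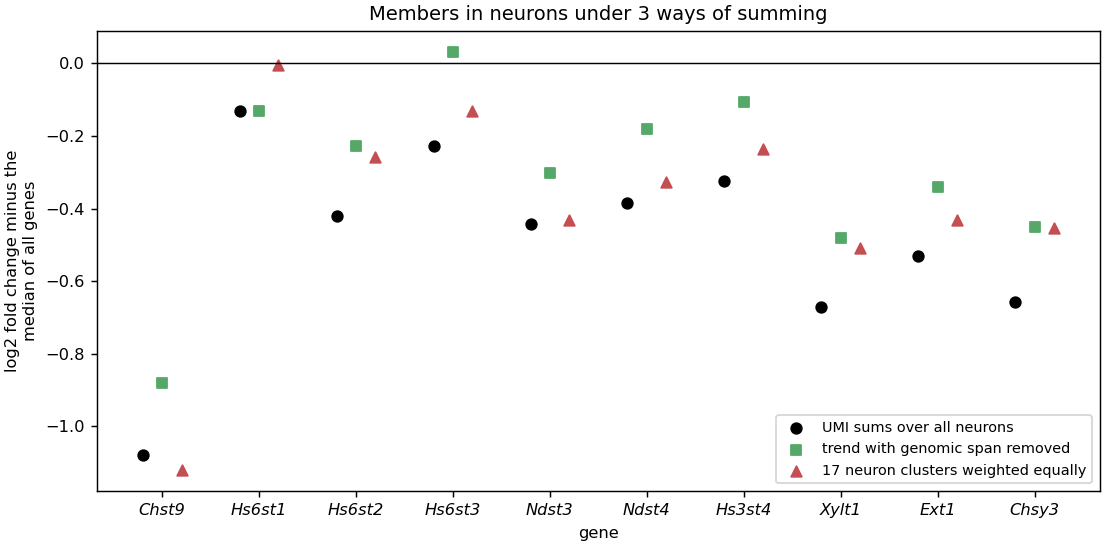
Log2 fold change of each gene in neurons minus the median of all genes under the same setting, for sums over all neurons (circles), with the trend on gene length removed (squares) and with 17 neuron clusters weighted equally (triangles). Chst9 stays lowest, at -0.88 with the trend removed and -1.12 with equal weights, and Hs6st3 and Hs6st1 lie near 0 in 1 setting each.

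Within the neuron subtypes, the members differed in where the lower level was found. Over 10 members and 7 subtypes, 37 of 70 combinations were lower with no overlap between the groups, and 1 was higher, beside 11.7% and 9.56% of the genes tested in those subtypes. In dentate granule cells, the granule neurons that relay input to CA3, Chst9 was at 361, 387 and 391 CPM in Control and 188, 144 and 146 CPM in Sevoflurane, a log2 fold change of -1.25 (SE 0.11). The gap between the groups was wider than either group's range. Chst9 was also lower with no overlap in CA1 cells (-0.84, SE 0.12), CA3 cells (-0.92, SE 0.18), retrohippocampal cells (-0.49, SE 0.12), Lhx6 interneurons (-1.48, SE 0.21) and the pooled neurons (-1.48, SE 0.31). The pooled neurons are not the same mix in both groups: a cluster led by Pld5 and Zfhx3 gave them 9, 5 and 2 cells in the Control libraries and 174, 244 and 200 in the Sevoflurane libraries. Its part in every value of the pooled neurons here and below was not tested. Of their other clusters, 3 had at least 20 cells in every library. Inside these, Chst9 overlapped between the groups in clusters 0 and 1 and was lower without overlap in cluster 28, at 253 to 311 CPM in Control and 72.5 to 127 CPM in Sevoflurane. In Adarb2 interneurons, at 5.08 to 9.10 CPM in Control, the groups overlapped (-0.50, SE 0.59). The summed level of a named subtype's own markers was also lower, and its part was not tested. In Control and Sevoflurane it was 4695 to 4838 and 3909 to 4289 CPM in dentate granule cells. CA1 cells had 1170 to 1309 and 984 to 1095 CPM, and CA3 cells 4130 to 4362 and 3539 to 3787 CPM. Lhx6 interneurons had 5079 to 5559 and 3567 to 4179 CPM, and Adarb2 interneurons 15823 to 18495 and 12255 to 14820 CPM. Only retrohippocampal cells, at 2697 to 3019 and 2458 to 2716 CPM, overlapped.

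Ext1 was lower without overlap in all 7 subtypes, between -0.28 (SE 0.08) in CA3 cells and -0.62 (SE 0.08) in retrohippocampal cells. Inside clusters 0, 1 and 28 of the pooled neurons its mean differences were -0.74, then -0.13 and -0.21 with overlap. Ext1 also overlapped in CA1 cluster 13 and Lhx6 cluster 24. In retrohippocampal cells it was at 893, 787 and 820.1 CPM in Control and 577, 495 and 557 CPM in Sevoflurane. Chsy3 was lower without overlap in 6 subtypes. Inside clusters 0, 1 and 28 of the pooled neurons its mean differences were -0.51, then -0.13 and -0.20 with overlap. The widest gap of Chsy3 was in dentate granule cells, with 346, 366 and 304 CPM in Control and 218, 183 and 189.7 CPM in Sevoflurane (-0.78, SE 0.09). Of the subtypes, only CA3 cells, where it was scarce, overlapped. Xylt1 was lower without overlap in the 4 hippocampal and retrohippocampal excitatory subtypes and in the pooled neurons, while both interneuron groups overlapped. In the pooled neurons it was at -1.01 (SE 0.14), and inside their clusters 0, 1 and 28 the mean differences were -0.41 with overlap, -0.52 and -0.90. In CA1 cells Xylt1 was at 240.0, 271 and 235 CPM in Control and at 164, 165 and 165 CPM in Sevoflurane.

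The heparan sulfate sulfotransferases were more uneven. Hs6st2 was lower without overlap in retrohippocampal cells alone, at 199.9, 195 and 211 CPM in Control and 116, 97.7 and 136 CPM in Sevoflurane (-0.79, SE 0.11). It was higher without overlap in the pooled neurons, at 125, 129.9 and 126 CPM in Control and 131, 181 and 139.6 CPM in Sevoflurane (0.24, SE 0.12), but overlapped inside each of their clusters 0, 1 and 28 (0.09, -0.06 and 0.24). Ndst4 was at 171, 142 and 128 CPM in Control dentate granule cells and 105, 76.8 and 76.2 CPM in Sevoflurane (-0.77, SE 0.14), and at 0.01 (SE 0.18) in retrohippocampal cells, where the groups overlapped. Retrohippocampal cluster 14 holds nearly all of that Ndst4, and inside it the level was 1025 to 1151 CPM in Control and 870.2 to 972 CPM in Sevoflurane, lower without overlap. The other 3 retrohippocampal clusters had Control means of 6.25 to 14.5 CPM. Ndst3 was lower without overlap in dentate granule cells (-0.63, SE 0.12), Lhx6 interneurons (-0.72, SE 0.11), Adarb2 interneurons (-0.66, SE 0.19) and the pooled neurons (-0.77, SE 0.14).

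Hs6st3 in CA1 cells was at 4170.5, 4373 and 3883 CPM in Control and 3938, 3638 and 3833 CPM in Sevoflurane, which overlapped (-0.12, SE 0.06). In CA3 cells its log2 fold change was 0.00 (SE 0.10). Hs6st3 was lower without overlap in dentate granule cells (-0.28) and in Adarb2 interneurons. The latter were at 479 to 509 CPM in Control and 425 to 474 CPM in Sevoflurane. CA1 cluster 12 was also lower without overlap, at 4397 to 4842 and 4019 to 4303 CPM. So were the pooled neurons, but their clusters 0, 1 and 28 each overlapped. Hs3st4 in CA3 cells was at 3037, 2931 and 2915 CPM in Control and 2394, 2688 and 2582 CPM in Sevoflurane, lower without overlap but by little (-0.21, SE 0.06). Its widest difference, -1.21 (SE 0.25) in Adarb2 interneurons, rested on 134, 54.6 and 123 CPM in Control against 42.5, 42.9 and 48.1 CPM. Hs6st1 overlapped in every subtype, between -0.28 (SE 0.18) and 0.24 (SE 0.28).

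**Figure D4:**
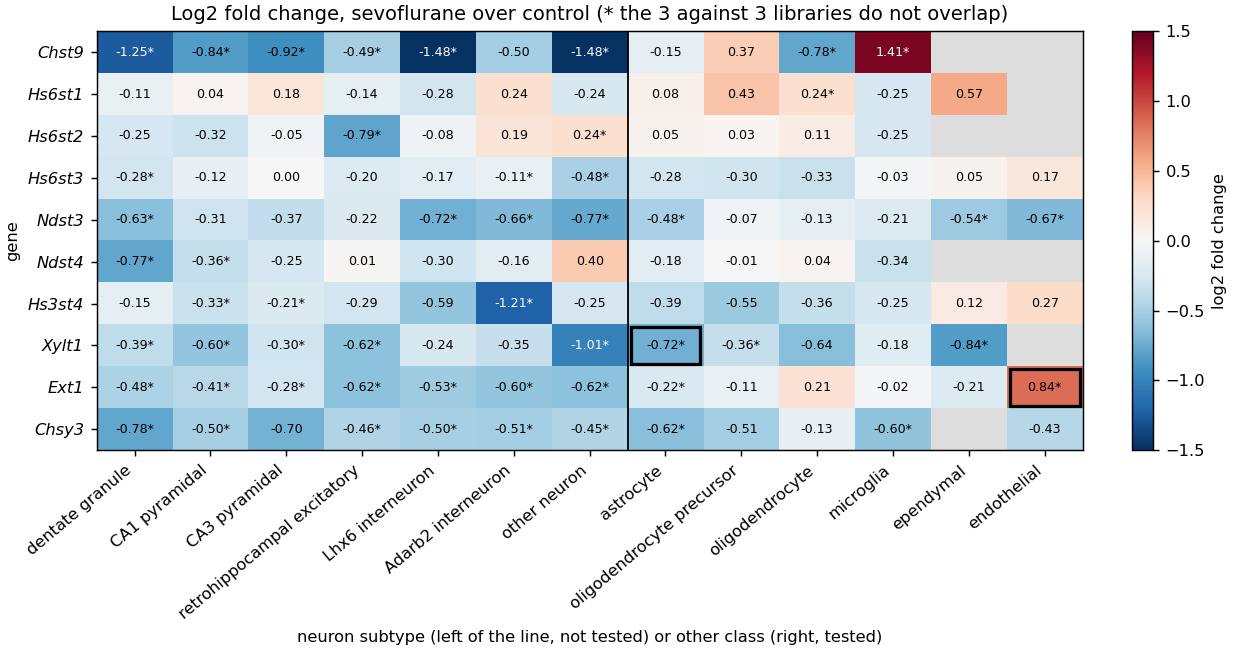
Log2 fold change of each gene (rows), sevoflurane over control, in 7 neuron subtypes (left of the line, a description) and 6 other classes (right, tested). Stars mark groups of 3 libraries that do not overlap, boxes mark an adjusted p under the threshold and grey marks genes below the count filter. Chst9 is lowest in Lhx6 interneurons and the pooled neurons at -1.48, and the boxes are Xylt1 in astrocytes at -0.72 and Ext1 in endothelial cells at 0.84.

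The members were also compared inside single clusters. This step was chosen after the values had been seen. In 17 neuron clusters with at least 20 cells in every library, and counting for each gene those with at least 10 CPM in either group, Chst9 was lower without overlap in 13 of 16 clusters and below 0 in all 16, with a median difference of mean log2(CPM + 1) of -1.09. Pooled over the 17 clusters, 9.83% of the genes tested were lower without overlap and 8.07% higher. Ext1 was lower without overlap in 13 of 17 clusters (median -0.45), Xylt1 in 11 of 17 (-0.41), Chsy3 in 11 of 17 (-0.53) and Ndst3 in 10 of 17 (-0.53). Ext1, Xylt1 and Ndst3 were below 0 in all 17. Hs3st4 was lower without overlap in 7 of 17, Hs6st2 in 5 of 16, Ndst4 in 5 of 12, Hs6st3 in 4 of 17 and Hs6st1 in 2 of 17. No member was higher without overlap in any of these clusters. The clusters come from the same libraries and are not replicates.

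For Hs6st2, the 5 clusters with no overlap were all 4 of the retrohippocampal cells and 1 of the 2 CA1 clusters. In the 3 dentate granule clusters Chst9 was at 356 to 397, 409 to 444 and 341 to 377 CPM in Control, and 139.6 to 192, 134 to 177 and 149.9 to 199 CPM in Sevoflurane.

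**Figure D5:**
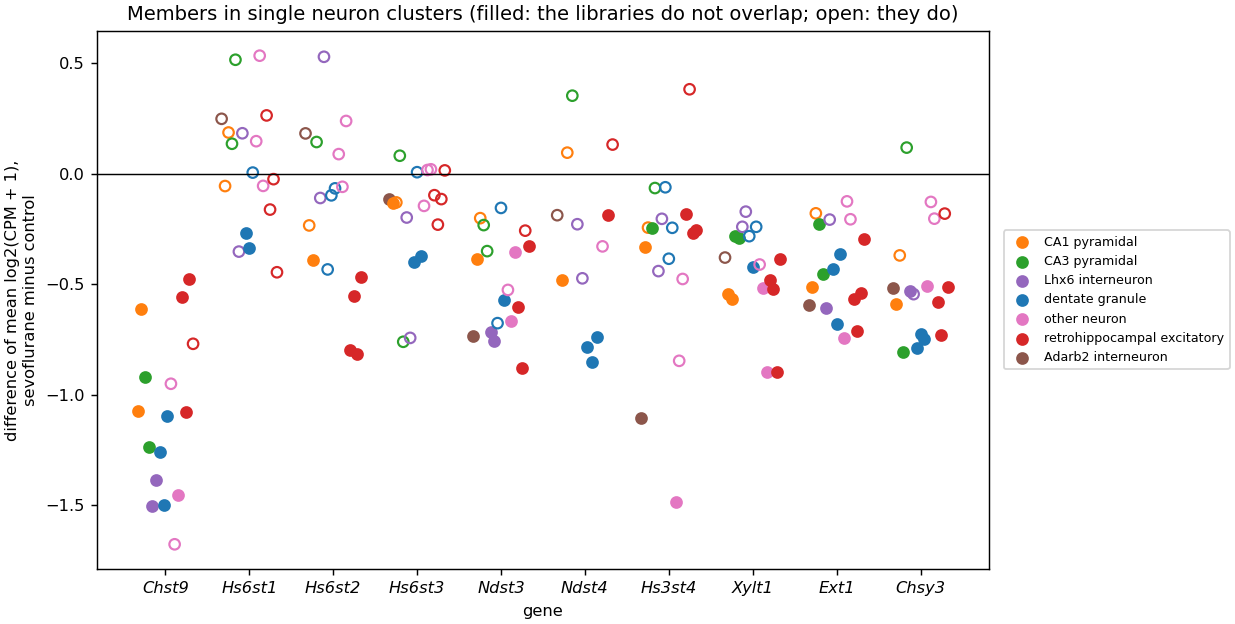
Difference of mean log2(CPM + 1), sevoflurane minus control, for each gene in single neuron clusters with at least 10 CPM in either group, coloured by subtype. Points are filled where the 3 against 3 libraries do not overlap and open where they do. All 16 points of Chst9 lie below 0, and the filled points of Hs6st2 are 4 retrohippocampal clusters and 1 CA1 cluster.

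The size of a member's difference was also set between subtypes, as the interaction of subtype and group in edgeR with the library as a block, for dentate granule, CA1 and CA3 cells in pairs. The neuron values that chose the genes enter these differences, so they too are a description. Of 30 differences, 2 had an adjusted p under 0.05, beside 0.392% of the genes tested over the 3 pairs and 0.619% in the pair of dentate granule and CA1 cells, to which both belonged, and nothing is read from this count. The log2 fold change of Chst9 was less negative in CA1 than in dentate granule cells by 0.43 (SE 0.08). That of Ndst4 was less negative by 0.44 (SE 0.09). Ndst3 pointed the same way with 0.32 (SE 0.08), and so did Chsy3 with 0.29 (SE 0.09). For Xylt1 the log2 fold change in CA3 cells was less negative than in CA1 cells by 0.30 (SE 0.07). The value of Chst9 stayed under that threshold in 2 of 13 alternative analyses and that of Ndst4 in 5 of 13.

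Retrohippocampal excitatory cells were set against the same 3 subtypes after their values had been seen. The log2 fold change of Chst9 was less negative than in dentate granule cells by 0.72 (SE 0.13). It was the 1 of these 30 differences with an adjusted p under 0.05, and no alternatives were run for it. Of all genes tested, 0.247% were under 0.05 in that pair and 0.179% over the 3 pairs. The values that chose the genes enter these differences too, so they are a description and nothing is read from this count. Hs6st2 was more negative in retrohippocampal than in CA3 cells, -0.74 (SE 0.15), than in dentate granule cells, -0.57 (SE 0.14), and than in CA1 cells, -0.47 (SE 0.12). Its lower level was not shown to be particular to retrohippocampal cells.

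Cells outside neurons were not used to choose the members, and here each was tested with edgeR's quasi-likelihood test. Their counts were not corrected for free RNA, though. The 10 neuron markers summed to 1577 to 2479 CPM in Control endothelial cells and to 4231 to 5070 CPM in Control microglia. In Control neurons they summed to 16186 to 16951 CPM. Neuronal transcripts may enter the values below, so these tests may not be free of the contrast that chose the members. That part was not tested. Of 51 combinations of a member and a class that passed the count filter, 2 were called, beside 0.958% of the genes tested over the 6 classes. All 10 members were tested in astrocytes, oligodendrocytes, oligodendrocyte precursors and microglia, 6 in ependymal and 5 in endothelial cells. Without overlap, 10 combinations were lower and 3 higher, beside 9.16% and 7.88% of genes.

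Xylt1 fell in astrocytes. It was at 399, 474 and 406 CPM in Control and 273, 255 and 249 CPM in Sevoflurane, a log2 fold change of -0.72 (SE 0.12, adjusted p = 0.00698), beside 1.98% of genes called in astrocytes. The Sevoflurane libraries lay close together, and all were below the lowest Control library. The call held in 13 of 14 alternatives, and without Control 2 the adjusted p was 0.0613. With the trend on gene length removed it was -0.58 (adjusted p = 0.0185). The summed level of 10 astrocyte markers in these cells was 13521 to 14140 CPM in Control and 10429 to 12908 CPM in Sevoflurane, with 3 markers lower and 2 higher without overlap, and that of 8 choroid plexus markers was 166 to 1029 CPM and 12.3 to 23.7 CPM. Their part in the result was not tested.

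Ext1 rose in endothelial cells. It was at 191, 134 and 222 CPM in Control and 379, 319 and 300.2 CPM in Sevoflurane, a log2 fold change of 0.84 (SE 0.21, adjusted p = 0.0463), beside 2.04% of genes called in that class. The groups did not overlap, but the class had 42 to 171 cells per library and the call was lost in 10 of 14 alternatives, including each library left out (adjusted p = 0.0637 to 0.156). With a class given to each cell by its own markers the log2 fold change was -0.02. The summed level of 10 neuron markers in this class was 1577 to 2479 CPM in Control and 1957 to 3161 CPM in Sevoflurane, which overlapped. So did that of 9 mural markers, at 4430 to 6139 CPM and 4179 to 4700 CPM, though no class of mural cells was named. That of 5 erythrocyte markers, at 1020 to 6609 CPM and 3084 to 5127 CPM, overlapped too. That of 10 oligodendrocyte markers was 782 to 896 CPM and 1036 to 1481 CPM, that of 7 fibroblast markers 110.0 to 256 CPM and 68.0 to 95.4 CPM, and that of 8 choroid plexus markers 85.4 to 682 CPM and 0 to 17.3 CPM. The part of these in the result was not tested.

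The remaining combinations missed the threshold. In oligodendrocyte precursors, the cells with the highest Xylt1, it was at 2631, 2568 and 2290.0 CPM in Control and 2117, 1836 and 1846 CPM in Sevoflurane, lower without overlap (-0.36, SE 0.11, adjusted p = 0.179), and DESeq2 called it (adjusted p = 0.0263). The summed level of these cells' own 8 markers was also lower, at 6711 to 7932 CPM in Control and 5393 to 6597 CPM in Sevoflurane, and its part was not tested. Chsy3 in astrocytes was at 64.7, 50.1 and 48.0 CPM in Control and 30.2, 30.4 and 43.1 CPM in Sevoflurane (-0.62, SE 0.18, adjusted p = 0.102). Chst9 in microglia went the other way from neurons, at 16.5, 11.2 and 10.4 CPM in Control and 37.8, 33.2 and 31.4 CPM in Sevoflurane (1.41, SE 0.36, adjusted p = 0.111), from as few as 4 UMIs in a library. In the same class 6 markers of border-associated macrophages summed to 497 to 661 CPM in Control and 3.15 to 223 CPM in Sevoflurane, 3 of them lower without overlap, and their part was not tested. In oligodendrocytes Chst9 was at 19.8, 11.97 and 12.7 CPM in Control and 8.53, 10.5 and 7.19 CPM in Sevoflurane (-0.78, SE 0.26, adjusted p = 0.228). Hs6st1 and Hs6st2 had log2 fold changes between -0.25 and 0.57 in the classes where they were tested. These p-values do not show that levels were alike.

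The rest of the pathway gives the setting. The list held 76 other measured genes of chain assembly, sulfation, sulfate supply and core proteins. In neurons 68 of them were tested and 1 passed edgeR's test, lower, beside 3.98% of all 18870 genes called. It was Hs3st5, another heparan sulfate 3-O-sulfotransferase, at 38.3, 39.0 and 39.9 CPM in Control and 25.3, 23.9 and 29.9 CPM in Sevoflurane (-0.57, SE 0.09, adjusted p = 0.0191). The median of the 68 was -0.05, with 43 below 0, beside 46.1% of all genes tested in neurons. The members' median was -0.41, but they were chosen from this contrast, so nothing is read from the gap between the medians.

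In the 6 other classes, 275 tests of these genes gave 4 calls, all lower, beside 0.958% of all genes tested there. In astrocytes Chst11, a chondroitin 4-O-sulfotransferase, was at 211, 207 and 183 CPM in Control and 129, 136 and 145 CPM in Sevoflurane (-0.55, SE 0.12, adjusted p = 0.0327). Cspg5, a neural chondroitin sulfate proteoglycan, was at 371, 555 and 463 CPM in Control astrocytes and 323, 240.2 and 242 CPM in Sevoflurane (-0.79, SE 0.16, adjusted p = 0.0196). In endothelial cells Extl3, an exostosin relative that starts heparan sulfate, was at 508, 410.1 and 484 CPM in Control and 223, 253 and 289 CPM in Sevoflurane (-0.86, SE 0.19, adjusted p = 0.0272). Csgalnact1, which starts chondroitin sulfate, was at 208, 168 and 293 CPM in Control and 72.8, 99.3 and 134 CPM in Sevoflurane (-1.05, SE 0.24, adjusted p = 0.0350). Both are in the class where the call of Ext1 was lost in 10 of 14 alternatives. The part of that class's marker sums, given above, in the values of Extl3 and Csgalnact1 was not tested. Of the 4 calls, 0 were left without Control 3 or without Sevoflurane 2.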

How the data were processed

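The authors deposited UMI counts per gene and cell for 6 libraries as 10x matrices; their file headers give Cell Ranger 6.1.1 as the counter. The submitters' processing notes list Seurat and CASAVA 1.8 too. Genome build, annotation and strand setting are not given in the sources used here. The 10 genes and all gene and marker lists were chosen with earlier results of these data known. Barcodes under 500 UMIs or 300 genes, or above 20% mitochondrial UMIs, were dropped, and predicted doublets (5.64 to 7.81% per library) were removed. In the kept cells the median share of mitochondrial UMIs was 0.143 to 0.397% per library. Libraries shared at most 0.333% of their barcodes. Cells were clustered with scanpy 1.11.5 without the pathway genes and named from marker lists; the limits for a name were set after clusters were seen. Marker genes name the classes, so marker levels describe them only. UMI counts were summed per library and class, and fitted with edgeR 4.0.16 (R 4.3.3; quasi-likelihood, TMM, low-count filter, Benjamini-Hochberg over all genes tested, threshold 0.05). Equal weighting used limma 3.58.1. The edgeR fits were tried on counts simulated from neuron sums with the same scatter for all genes. That does not show how they behave in the other classes, the subtypes or the clusters. Replicate numbers did not pair the libraries (correlations of -0.158, -0.081 and -0.118 between same-numbered libraries over 6892 genes). Named genes were all members, every listed pathway gene that passed in a class (up to 20, at 5 CPM or more), and the 3 genes most like each of 4 members. Alternatives were DESeq2 1.42.0 and its size factors, no low-count filter, the replicate block, removal of the trend on gene length, doublets kept, clustering resolution 2, a class for each cell, equal cluster weights and each library left out. CPM carries no correction for free RNA.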

Additional observations from a re-analysis of the deposited data

Results flagged for a closer look

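The log2 fold change of Chst9, Sevoflurane over Control, differed by 0.43 between CA1 and dentate granule cells and by 0.72 between retrohippocampal and dentate granule cells, as edgeR's interaction of subtype and group. That of Ndst4 differed by 0.44 between CA1 and dentate granule cells. The values that chose the genes enter these differences, which are a description.

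In other cases every Sevoflurane library lay on one side of the Control libraries in one cell type and on the opposite side in another. The difference between those cell types was not tested. Of all genes tested, 9.16% were lower and 7.88% higher without overlap in the glial and vascular classes. In the neuron subtypes 11.7% were lower and 9.56% higher. Chst9 had a log2 fold change of 1.41 in microglia, from few UMIs, where the Sevoflurane libraries were higher. They were lower in oligodendrocytes (-0.78), and both of these values missed the threshold. In neurons they were lower in dentate granule cells (-1.25), CA1 cells (-0.84), CA3 cells (-0.92), retrohippocampal cells (-0.49), Lhx6 interneurons (-1.48) and the pooled neurons (-1.48). Hs6st2 was at 0.24 in the pooled neurons and -0.79 in retrohippocampal cells, and overlapped inside 3 single clusters of the pooled neurons. In endothelial cells, where its call was lost in 10 of 14 alternatives, Ext1 was at 0.84. It was at -0.22 in astrocytes, -0.48 in dentate granule, -0.41 in CA1, -0.28 in CA3 and -0.62 in retrohippocampal cells. Ext1 was at -0.53 in Lhx6 interneurons, -0.60 in Adarb2 interneurons and -0.62 in the pooled neurons, where it overlapped inside clusters 1 and 28.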

How the results depend on the processing

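The median log2 fold change of the members in neurons, -0.41, was -0.263 with the trend on gene length removed and -0.262 with clusters weighted equally (relative to all genes, -0.431 became -0.379 with equal weights), and ran from -0.521 (without Sevoflurane 1) to -0.372 with single libraries left out. In neuron subtypes the median of -0.353 was -0.233 with the trend removed and ran from -0.406 to -0.337 with single libraries left out. The 2 calls between subtypes became 1 with DESeq2's size factors or clustering resolution 2, 0 with DESeq2's test, doublets kept or the trend removed, 8 with no filter on low counts, and 0 to 1 with single libraries left out. The 2 calls of members in glial and vascular classes became 4 with no filter, 1 with the replicate block and 0 to 2 with single libraries left out. The 4 calls of other pathway genes there became 9 with DESeq2's test, 18 with no filter, 2 with the replicate block and 0 to 6 with single libraries left out. The 1 call in neurons became 2 with DESeq2's size factors, 5 with its test, 0 with equal weights and 0 to 1 with single libraries left out. Hs6st3 in neurons turned to 0.034 with the trend removed, Hs6st1 to 0.11 with equal weights (-0.004 relative to the median of all genes), and Ext1 in endothelial cells to -0.024 with a class for each cell. The cause was not tested. Under the replicate block the medians were -0.417 in neurons and -0.359 in subtypes; the block was not run between subtypes. Leaving out the neuron cluster led by Pld5 and Zfhx3, an alternative added after seeing the data, gave -0.431 in neurons and 1 call. With doublets kept microglia went unnamed. A class given to each cell matched the cluster's class for 64.7% of cells, and 17.7% of cells lay near a boundary. In endothelial cells 42 to 171 cells per library limit the precision.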

Other observations

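Other genes of the pathway were also called in single neuron subtypes, a step added after seeing the data. Of 411 tests with edgeR, 9 were called, 8 lower and 1 higher, beside 1.91% of all genes tested in those subtypes. The count lay near that share, so nothing is read from it. No alternatives were run for these calls. The part of the subtypes' own marker sums, given above, in these values was not tested. In dentate granule cells the glypicans Gpc3 and Gpc4, heparan sulfate core proteins, had log2 fold changes of -1.59 (SE 0.36, adjusted p = 0.0462) and -0.53 (SE 0.09, adjusted p = 0.0199). Gpc4 was at 177, 201 and 169.7 CPM in Control and 134, 114 and 131 CPM in Sevoflurane. Tnr, a glycoprotein of perineuronal nets, fell in CA1 cells (-0.51, SE 0.07, adjusted p = 0.0163) and CA3 cells (-0.45, SE 0.08, adjusted p = 0.0399), and Chst11 fell in CA3 cells (-0.39, SE 0.06, adjusted p = 0.0399). Csgalnact1 fell in retrohippocampal cells (-0.59, adjusted p = 0.0286) and in the pooled neurons (-0.997, adjusted p = 0.0305).

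Hs3st5 fell in Adarb2 interneurons, from 220.4, 179 and 214 CPM in Control to 89.3, 116 and 106 CPM in Sevoflurane (-0.97, SE 0.13, adjusted p = 0.0026). Hs3st2, another 3-O-sulfotransferase, rose in the pooled neurons, from 23.7, 32.4 and 30.2 CPM to 71.1, 127 and 86.7 CPM (1.71, SE 0.21, adjusted p = 0.0073). In the pooled neurons the cluster led by Pld5 and Zfhx3 gave 9, 5 and 2 cells in Control and 174, 244 and 200 in Sevoflurane, and its part in the values of Hs3st2 and Csgalnact1 was not tested.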
